A study of Homo sapiens with 18 samples.

Results

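The comparison sets 3 libraries of HEK293T cells that received an adenine base editor built on the SaCas9 nickase against 3 libraries that received the same deaminase on the SpCas9 nickase, both with a guide to an intergenic site. These 6 libraries are the intergenic controls of both adenine editors in a series of 18 libraries, and were chosen by their labels alone. In the whole series, polyadenylated RNA was sequenced from 6 groups of 3 libraries, in which 3 base editors were each paired with an intergenic guide or a guide to a splice site of NRF1 exon 7. HEK293T is a human embryonic kidney line that carries the SV40 large T antigen.

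In the first group, named SaABE intergenic here, cells had received the plasmid pX462-ABE8e-nSaCas9-Intergenic, and in the other, SpABE intergenic, pX461-ABE8e-nSpCas9-Intergenic. All 6 libraries shared the ABE8e deaminase, the transfection of 750000 cells with X-tremeGENE 9, puromycin selection for 48 hours and RNA extraction 72 hours after transfection. By the paper's methods, both plasmids were built from the same parent vector. The groups differed in the nickase, in the guide and in the tracrRNA that goes with each nickase. What each of these contributed cannot be told apart. Every library came from transfected and selected cells, so no level of untreated cells stands beside the values, and the labels do not say whether replicates were separate cultures. The 3 libraries of SpCBE intergenic, the evoCDA1 cytosine deaminase on the SpCas9 nickase, are given as values only. They share the nickase and the intergenic guide with SpABE intergenic, and differ from it in the deaminase.

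Adenine base editors join a tRNA-type adenosine deaminase to a Cas9 that nicks 1 strand of DNA and is led to its site by a guide RNA. ABE8e is a fast variant of that deaminase. Cells answer foreign or misfolded protein through the heat-shock response, in which the factor HSF1 turns on genes of chaperones, and through the unfolded protein response and the integrated stress response, which act from the endoplasmic reticulum and from the block of translation initiation. In HEK293T, large T antigen binds p53 and the retinoblastoma proteins, so p53 targets and cell cycle genes are expressed on a changed background.

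The guides are shown because they are one of the differences between the groups. They are written 5′ to 3′ in lower case, and the capitals are the genomic bases that follow, which contain the PAM, the short motif that the nickase needs.
SaABE intergenic guide: ccattatcgtgacgctatcgAGGGAT
SpABE intergenic guide: ttgactgcacacaactgggcTGG
The SaABE guide matched hg38 exactly once, at chr10:131349102-131349121 on the minus strand, and the SpABE guide exactly once, at chr13:102967577-102967596 on the plus strand. GENCODE 44 places no gene at either site. The nearest gene to the SaABE site was TCERG1L, 37381 bases away, which had 0.687 ± 0.141 CPM, that is counts scaled to the library total (SD, n = 3), in SaABE and 0.548 ± 0.113 in SpABE (log2 fold change 0.33 ± 0.28 SE, adjusted p = 0.39, edgeR quasi-likelihood test). On its other side PPP2R2D, a regulatory subunit of protein phosphatase 2A, lay 551887 bases away and was slightly higher in SaABE, by 0.20 ± 0.04 (adjusted p = 0.000343, edgeR), below the fold threshold. The nearest tested gene to the SpABE site was ERCC5, a repair endonuclease 91582 bases away, with a log2 fold change of -0.08 ± 0.05 (adjusted p = 0.169, edgeR). With up to 3 mismatches and the PAM, the SaABE guide matched no other site in hg38. The SpABE guide matched 6 more sites, each with 3 mismatches, at 4 of which 5 tested genes lay (HOXB7, HOXB8, SCARA5, SSBP3 and WNK2), and 0 of these 5 genes passed both thresholds.

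Log2 fold changes are given throughout as SaABE minus SpABE, so positive values are higher in SaABE. A gene was called when its adjusted p was under 0.05 and its absolute log2 fold change over 0.5. Among 17743 tested genes, 1248 (7.03%) were called, 636 higher (3.58%) and 612 lower (3.45%). By adjusted p alone, 3416 genes (19.3%) were higher and 3390 (19.1%) lower, and the 3 SaABE libraries did not overlap the 3 SpABE libraries for 7858 genes (44.3%). The median over all tested genes was 0.00201, with an interquartile range of -0.163 to 0.164, so most differences were small and the call shares above are the background for every count that follows. Of the called genes, 8 had a mean over 1000 CPM, and all 8 were higher in SaABE. They were 6 genes of the chaperone lists (HSPA6, HSPH1, HSPA1B, DNAJB1, HSP90AA1 and HSP90AB1), TCP1, a subunit of the cytosolic chaperonin (0.57), and the polyubiquitin gene UBB (0.55), the last 2 being named after their values were seen.

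**Figure D1:**
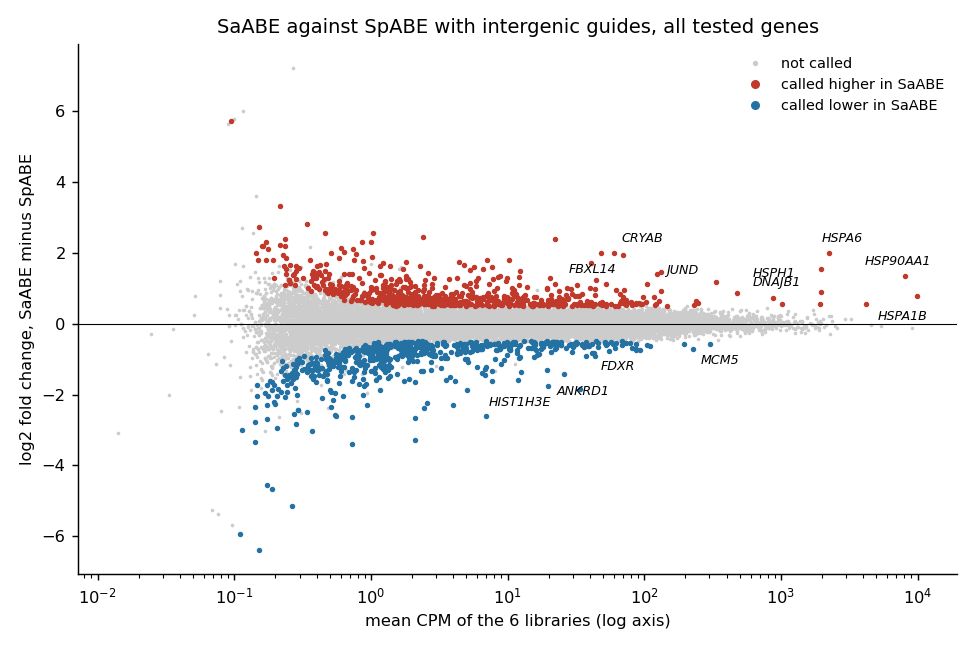
Log2 fold change of SaABE minus SpABE (vertical axis) against mean CPM over the 6 libraries (horizontal, log axis), 1 point per tested gene, with 636 called higher in red and 612 called lower in blue (1 gene without counts in these 6 libraries is not drawn). The 8 called genes above 1000 CPM are all higher in SaABE, among them HSPA6, HSPH1, HSP90AA1, HSPA1B and DNAJB1.

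The libraries differed as such. Totals were 29829635 to 31168046 counts in SaABE and 34462184 to 38046529 in SpABE, and 23655 to 23851 genes were detected in SaABE against 24219 to 24467 in SpABE. Counts on mitochondrial genes were 1.16% ± 0.0272 (SD, n = 3) of the total in SaABE and 1.029% ± 0.045 in SpABE. The 10 most abundant genes held 5.951% ± 0.0926 of counts in SaABE and 4.638% ± 0.046 in SpABE. Neither group overlapped the other in any of these measures, and an exact two-sided permutation test gave p = 0.1 for each, the smallest that 3 against 3 libraries allow. The part of depth in the results below was not tested. On the first principal component of the 6 libraries, which held 40.9% of the variance, SaABE libraries lay between -27.2 and -23.6 and SpABE libraries between 22 and 27. Of 12 markers of the HEK293 line, PAX8 was at 0 counts in all 6 libraries, and 11 were tested, of which PAX2 alone was called (higher, 0.89 ± 0.18, adjusted p = 0.000435, edgeR). Summed CPM of the marker list was 1009 to 1050 in SaABE and 1084 to 1152 in SpABE, of which VIM alone held 657.4 ± 17.3 and 763.4 ± 27.1. By adjusted p, 4 of the 11 were higher and 2 lower, and the median was 0.0931. Of the blood markers, 4 of 10 were tested, with sums of 5.083 to 5.798 CPM against 5.26 to 5.883, and of these CD14 was called lower at 0.921 against 1.33 CPM. Fibroblast markers (6 of 10 tested, 0 called) summed to 98.73 to 108.3 CPM in SaABE and 96.95 to 108.9 in SpABE, and mature epithelial markers (5 of 8 tested, 0 called) to 14.81 to 15.35 and 12.81 to 13.75. GATA1 was at 0 counts, and PTPRC and HBB did not exceed 1 count in any of the 6 libraries. In bulk RNA, fewer cells of a kind and less RNA per cell cannot be told apart.

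Messages of cytosolic chaperones were higher in SaABE, HSPA6 and CRYAB by 3.98-fold each, HSPH1 by 2.89-fold and HSP90AA1 by 2.56-fold. HSP70 proteins bind exposed hydrophobic stretches of unfolded proteins and are assisted by HSP40 (DNAJ) proteins and nucleotide exchange factors. Of 20 tested genes of the HSP70 and HSP40 list, 11 were higher and 4 lower by adjusted p, 6 were called higher and 0 called lower, and the list median was 0.141. Of 17 tested genes for HSP90, its co-chaperones and the small heat-shock proteins, 13 were higher and 2 lower, 7 were called higher and 0 called lower, and the median was 0.397, against 0.00201 over all genes. The 10 heat-shock genes (HSPA6, HSPA8, HSPA1A, HSPA1B, HSPH1, DNAJB1, HSP90AA1, HSP90AB1, HSPD1 and HSPE1) together held 4.279% ± 0.119 of all counts in SaABE and 2.383% ± 0.0379 in SpABE, and 1.407% in SpCBE intergenic.

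HSPA6 (ENSG00000173110.8), a strictly stress-inducible HSP70, had 3538, 3593 and 3562 CPM in the SaABE libraries and 877, 896 and 915 in the SpABE libraries. The log2 fold change of HSPA6 was 1.99 ± 0.03 SE (adjusted p = 7.73e-24, edgeR). Its level was 223.1 CPM in SpCBE intergenic. Its pseudogene HSPA7 had 34.6 to 41.5 CPM in SaABE and 5.89 to 7.81 in SpABE (2.39 ± 0.10, adjusted p = 1.35e-14, edgeR). The copies are near-identical, so reads may be shared between them, and their sum was 3602 ± 23.9 CPM against 903.1 ± 19.1. HSPH1, the HSP110 exchange factor that recharges HSP70, had 2779, 3069 and 2954 CPM in SaABE and 1034, 1034 and 978 in SpABE. Its log2 fold change was 1.53 ± 0.03 (adjusted p = 5.26e-21, edgeR). DNAJB1, the main HSP40 partner of inducible HSP70, was higher by 0.90 ± 0.02 (2562 ± 50.1 against 1375 ± 8.34 CPM, adjusted p = 1.32e-18, edgeR).

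The classical inducible HSP70 genes HSPA1A and HSPA1B encode the same protein from neighbouring copies, and the division of reads between them is uncertain. HSPA1B had 12390 to 12910 CPM in SaABE and 7286 to 7473 in SpABE (0.78 ± 0.04, adjusted p = 2.57e-13, edgeR), HSPA1A 267 to 291 against 227 to 248 (0.24 ± 0.06, adjusted p = 0.00396, edgeR). Summed over both copies the level was 12890 ± 266 CPM in SaABE and 7584 ± 118 in SpABE, a ratio of 1.7. DNAJB6, an HSP40 that holds aggregation-prone proteins, and DNAJA1 were called as well, at 0.87 ± 0.03 and 0.72 ± 0.03. The constitutive HSC70 gene HSPA8 differed little, 3317 to 3459 against 3091 to 3181 CPM (0.13 ± 0.03, adjusted p = 0.000246, edgeR). In the other direction, the HSP70 exchange factor BAG3 had 234 to 239 CPM in SaABE and 260 to 274 in SpABE, lower by 0.17 on the log2 scale (adjusted p = 0.000159, edgeR), and DNAJB4 was lower too. The lowest log2 fold change in the HSP70 and HSP40 list was -0.473. Chaperone genes therefore did not move as 1 block.

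HSP90AA1, the inducible HSP90 of the cytosol, had 10760, 12350 and 11680 CPM in SaABE and 4690, 4548 and 4379 in SpABE. Its log2 fold change was 1.35 ± 0.04 (adjusted p = 1.26e-18, edgeR), whereas the constitutive HSP90AB1 was higher by 0.55 ± 0.03 (4836 to 5153 CPM against 3385 to 3455). The pseudogenes HSP90AA2P (1.80 ± 0.12) and HSP90AB3P (1.55 ± 0.12) were also among the 12 largest rises, with levels under 20 CPM, and can share reads with their parent genes. CHORDC1, an HSP90 partner, had 432, 507 and 470 CPM in SaABE against 212, 209 and 196 in SpABE (1.19 ± 0.05, adjusted p = 2.03e-15, edgeR). CRYAB, the small heat-shock protein alpha-B crystallin, had 90.4, 98 and 100 CPM in SaABE against 24, 24.7 and 23.7 in SpABE, and 2.018 in SpCBE intergenic. Its log2 fold change was 1.99 ± 0.05 (adjusted p = 4.84e-19, edgeR). HSPB8 (16.6 ± 0.347 against 7.83 ± 0.75 CPM) and HSPB1 (0.63 ± 0.04) were the other small heat-shock genes called higher. HSPD1, the mitochondrial HSP60, was lower by 0.11 while its co-chaperonin HSPE1 was higher by 0.57 ± 0.03. HSF1 itself was higher by 0.14 ± 0.04 (adjusted p = 0.00599, edgeR), below the fold threshold.

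**Figure D2:**
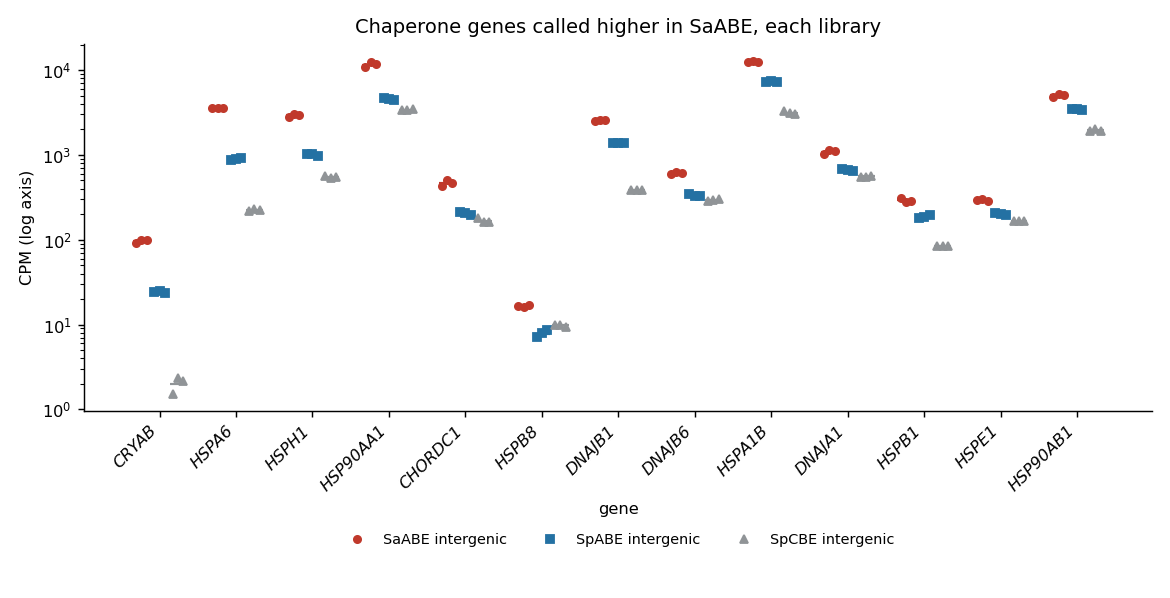
CPM (log axis) of the 13 chaperone genes called higher in SaABE, 1 point per library and a line at each mean, for SaABE intergenic (red), SpABE intergenic (blue) and SpCBE intergenic (grey). For each gene all 3 SaABE libraries lie above all 3 SpABE libraries, and CRYAB in SpCBE intergenic lies near 2 CPM.

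HSF1 binds heat-shock elements, inverted repeats of a short unit. Promoters were searched on both strands for the paired unit in either order, GAANNTTC and TTCNNGAA, in a window from 250 bases before to 50 bases after each gene's RefSeq start (GRCh38.p14), which was found for 12231 of the 17743 tested genes. Only 1 start per gene was used, the first listed, and any other starts were not searched. At least 1 pair was present in 10% of these promoters, in 11.6% of those of genes called higher and 14.6% of those of genes called lower. At least 2 pairs were present in 1.05% of all, 2.96% of called-higher and 1.37% of called-lower promoters. Of the 13 called chaperone genes 12 had a promoter and 7 of these (58.3%) held a pair, against 5 of 22 (22.7%) among the chaperone-list genes not called. At least 2 pairs were held by 5 of the 12 and by 2 of the 22, and HSPA8, not called, held 4. Stretches of 4 of these promoters are shown as examples from the called chaperones with at least 2 pairs in the whole window, 5′ to 3′ on the gene's strand, with the paired units in capitals.
HSPA6: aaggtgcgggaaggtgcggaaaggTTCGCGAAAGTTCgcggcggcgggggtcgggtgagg
CHORDC1: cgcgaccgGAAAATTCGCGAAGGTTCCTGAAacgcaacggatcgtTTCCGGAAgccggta
DNAJB6: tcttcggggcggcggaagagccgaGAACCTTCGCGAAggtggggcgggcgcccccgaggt
HSPB8: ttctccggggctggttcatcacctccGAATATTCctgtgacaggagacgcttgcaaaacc
They lie at chr1:161524442-161524501 (plus strand, 98 to 39 bases before the start), chr11:90223058-90223117 (minus strand, 68 to 9 bases before), chr7:157336849-157336908 (plus, 155 to 96 bases before) and chr12:119178817-119178876 (plus, 114 to 55 bases before). CHORDC1 held 6 pairs in its whole window, some of them overlapping. HSPA6 and DNAJA1 held 3, and DNAJB6 and HSPB8 2, of which the stretch of HSPB8 shows 1. HSPH1, DNAJB1, HSP90AA1, HSP90AB1 and HSPE1, also called, held no pair in the 1 window searched for each. The window of DNAJB1 lay inside the annotated gene and that of HSP90AA1 at the upstream end of the gene. A pair at any other start of these genes would have been missed, and a match is only a match of letters.

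Among the other motifs searched, a GC box (GGGCGG) was present in 69.7% of all promoters, 75.8% of called-higher and 48.4% of called-lower promoters. A TATA box (TATAAA) was present in 5.96% of all, 6.45% of called-higher and 15.4% of called-lower promoters, and in 25.5% of those of genes lower by over 1 on the log2 scale. The ETS core (CCGGAAG) was present in 18% of all, 6.45% of called-higher and 15.7% of called-lower promoters. The AP-1 site (TGACTCA) was present in 2.89%, 3.76% and 3.85% of the same sets, the cyclic AMP response element (TGACGTCA) in 3.24%, 3.23% and 3.85%, and the amino acid response element (TGATGCAAT) in 0.123%, 0.538% and 0.275%. Shares were 14.8%, 15.9% and 14.3% for the antioxidant core (TGACNNNGC), 9.93%, 8.33% and 6.32% for the E-box (CACGTG), 36.6%, 31.2% and 41.8% for the CCAAT box, and 2.21%, 1.08% and 1.37% for the NRF1 site. All were searched on both strands, and windows of the same length were used for every gene.

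Outside the chaperones, the largest rises included 2 ubiquitin ligase adaptors. FBXL14, an F-box protein that marks the factor SNAIL for degradation, had 80.5, 73.5 and 77.8 CPM in SaABE and 17.6, 19.6 and 20.8 in SpABE (1.998 ± 0.052, adjusted p = 4.84e-19, edgeR). KLHL25, a cullin-3 adaptor, had 111, 113 and 109 CPM in SaABE and 28.9, 29.1 and 29.6 in SpABE (1.93 ± 0.03, adjusted p = 1.01e-22, edgeR). In SpCBE intergenic they were at 13.46 and 22.24 CPM. For both genes the mean SpCBE level lay below the mean SpABE level (19.34 and 29.23 CPM) and further below the mean SaABE level (77.29 and 111.2 CPM). C11orf96 (1.81 ± 0.11) and the pacemaker channel gene HCN4 (1.52 ± 0.12) were also among the 12 largest rises, from 3.115 and 2.751 CPM in SpABE.

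The integrated stress response converges on the factor ATF4, which raises amino acid transporters, synthetases and the later factor CHOP (DDIT3). Of its 28 tested genes 16 were higher and 7 lower by adjusted p, 5 were called higher and 0 called lower, and the median was 0.133. CHAC1, a glutathione-degrading enzyme downstream of CHOP, had 66.5, 59.9 and 62.1 CPM in SaABE against 19, 19.1 and 19.6 in SpABE (1.71 ± 0.06, adjusted p = 4.45e-16, edgeR). DDIT3 was at 87.7 ± 1.76 against 51.77 ± 1.246 CPM (0.76 ± 0.04), TRIB3, an ATF4 target that damps the response, at 52.19 ± 1.37 against 35.44 ± 1.48 (0.56 ± 0.05), and NUPR1, a small stress-induced nuclear protein, at 11.59 ± 0.534 against 3.804 ± 0.227 (1.60 ± 0.12). The lipoprotein receptor VLDLR was the other called member (0.56). The ATF4 message itself was higher by 0.22 ± 0.02, and the synthetase ASNS by 0.15 ± 0.04. Of the serine and one-carbon enzymes on the list, SHMT2, PSPH, MTHFD2, PSAT1 and PHGDH were lower, between -0.30 and -0.10, and ALDH1L2 did not pass the test (0.01, adjusted p = 0.888, edgeR). The list was thus split, with CHAC1, DDIT3 and TRIB3 on one side and serine enzymes on the other.

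For the unfolded protein response and folding in the endoplasmic reticulum, 16 of 21 tested genes were higher and 3 lower, with a median of 0.205, but 0 passed the fold threshold. XBP1, the factor spliced by IRE1, was at 241.1 ± 14.2 against 170.6 ± 2.13 CPM (0.50 ± 0.03, adjusted p = 6e-11, edgeR), MANF, a secreted stress protein, was higher by 0.41 ± 0.03, the lectin chaperone CANX by 0.39 ± 0.03, and HSPA5, the reticulum's own HSP70 (BiP), by 0.18 ± 0.02. The median lay above that of the HSP70 and HSP40 list (0.141), although 6 members of the latter and 0 of the reticulum list passed the fold threshold. Targets of NFE2L2, the factor of the oxidative stress response, were 10 higher and 2 lower of 21, with 0 called and SQSTM1, the autophagy receptor p62, at 0.33 ± 0.03. Hypoxia targets were 9 higher and 3 lower of 23, with 0 called. Proteasome subunits were 9 higher and 8 lower of 36, with a median of 0.00657 and 0 called. Of 7 tested genes of the metal response, 1 was higher and 1 lower.

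Immediate-early genes respond to growth factors and stress within minutes through preformed factors. Of 31 tested, 19 were higher and 4 lower by adjusted p, and 11 were called higher and 0 called lower, with a median of 0.262. JUND, a Jun family member of AP-1, had 186, 170 and 183 CPM in SaABE and 61.4, 68.9 and 74.9 in SpABE (1.39 ± 0.06, adjusted p = 2.57e-14, edgeR). DUSP1, the phosphatase that switches off stress kinases, was at 94.03 ± 2.74 against 49.07 ± 0.407 CPM (0.94 ± 0.03), and the orphan receptor NR4A1 at 53.87 ± 3.2 against 26.58 ± 0.614 (1.02 ± 0.06). KLF2 (1.09 ± 0.12), EGR3, JUNB (0.79 ± 0.05), FOSB (0.66 ± 0.05) and IER5, DUSP5, DUSP6 and ARC completed the called members. Central members of the same list did not follow. FOS was at 35.52 ± 0.827 against 37.05 ± 0.818 CPM (-0.06 ± 0.05, adjusted p = 0.348, edgeR), EGR1 at 58.57 ± 3.31 against 52.97 ± 0.401 (0.14 ± 0.05), and JUN and ATF3 were lower, at -0.29 ± 0.03 and -0.27 ± 0.03.

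**Figure D3:**
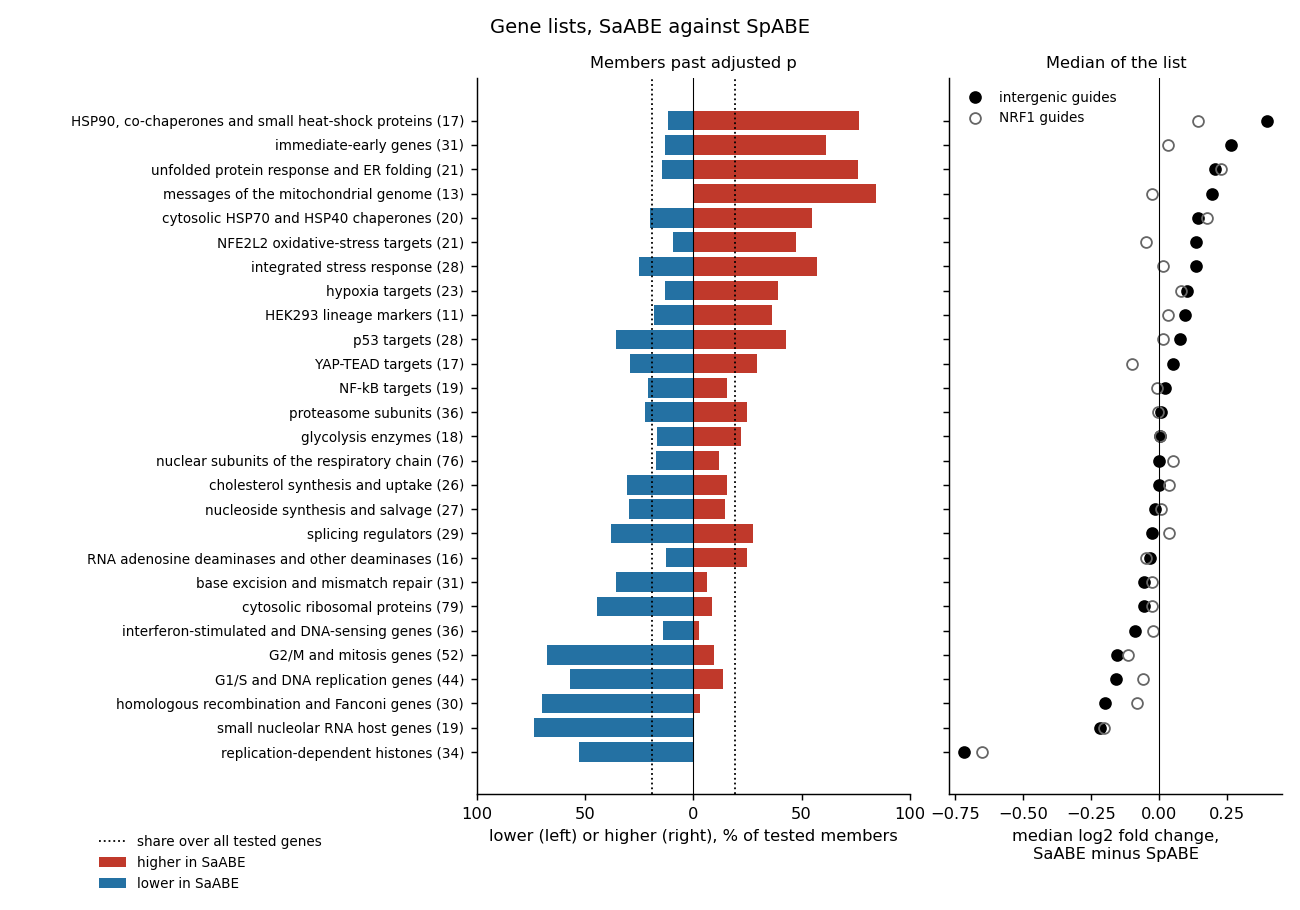
Left, for each gene list with at least 10 tested members (number in parentheses), the percentage of members higher (red, right) and lower (blue, left) in SaABE at an adjusted p under 0.05, with dotted lines at the shares over all tested genes, 19.3% and 19.1%. Right, the list's median log2 fold change with intergenic guides (filled) and with NRF1 guides (open); the HSP90 list (0.397) lies at the top and the replication-dependent histones (-0.717 and -0.651) at the bottom.

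Messages that were lower in SaABE included replication-dependent histones, which package newly copied DNA. Most of their messages end in a stem-loop without a poly(A) tail, so a poly(A) library holds only a small and variable part of them. Of 57 such genes 34 passed the filter on low counts, of which 18 were lower and 0 higher by adjusted p, 16 were called lower, and the median was -0.717. HIST1H3E had 5.77, 4.97 and 6.96 CPM in SaABE and 18.2, 18.5 and 17 in SpABE (-1.60 ± 0.08, adjusted p = 2.57e-13, edgeR). HIST1H2AG had 6.93, 7.12 and 7 CPM against 17.9, 18.9 and 17 (-1.35 ± 0.08), and HIST1H4H 1.12, 1.19 and 1.68 against 7.17, 6.99 and 5.55 (-2.30 ± 0.15). The levels of these genes were low. HIST1H3E and HIST1H2AG were among the largest falls, for which libraries that did not overlap were required by the naming rule. Outside that list, HIST2H2AA4 was called lower (-1.84 ± 0.14) and its copy HIST2H2AA3 was not (0.13 ± 0.48, adjusted p = 0.865, edgeR), and since reads of the copies can be split either way, their sum of 25.96 ± 0.981 against 63.22 ± 5.24 CPM is the safer value. HIST2H2BF and HIST3H2BB, also outside the list, and its members HIST1H3H and HIST2H4A were among the 12 largest falls, between -1.88 and -1.42. Summed over the list's tested members, the libraries held 147.9 to 155.9 CPM in SaABE and 257.2 to 265.6 in SpABE. SLBP, the protein that binds the histone stem-loop, was higher by 0.25 ± 0.04.

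Genes of the G1/S transition and DNA replication were lower on balance, with 25 lower and 6 higher of 44, 5 called lower, 0 called higher, and a median of -0.158. MCM5, a subunit of the replicative helicase, had 177, 167 and 174 CPM in SaABE and 268, 293 and 289 in SpABE (-0.72 ± 0.03, adjusted p = 3.51e-15, edgeR). CDC6, which loads that helicase at origins, had 153, 157 and 159 against 230, 235 and 231 CPM (-0.57 ± 0.03), and TIPIN, a fork protection factor, 46.4, 47 and 46.9 against 75.7, 75.5 and 73.3 (-0.68 ± 0.04). ORC1, the largest origin recognition subunit, and GINS3 were the other called members. E2F1, which drives many genes of the list, was at 78.59 ± 3.31 against 75.73 ± 1.26 CPM (0.05 ± 0.04, adjusted p = 0.349, edgeR), and cyclin D1 (CCND1) was higher by 0.37 ± 0.07. Of 52 mitotic genes 35 were lower and 5 higher, with a median of -0.156 and 0 called. NUSAP1, a spindle protein, was lower (-0.47 ± 0.04) and CKS2, a CDK subunit, was higher (0.38 ± 0.03). Homologous recombination and Fanconi genes were 21 lower and 1 higher of 30, with a median of -0.201, and XRCC2, a recombination factor, was the 1 called member, at 42.04 ± 1.82 against 61.53 ± 4.57 CPM (-0.55 ± 0.05, adjusted p = 1.04e-08, edgeR). Base excision and mismatch repair genes, which handle deaminated bases and mismatches, were 11 lower and 2 higher of 31, with 0 called, EXO1 at -0.41 ± 0.03 and XRCC1, the scaffold of nick repair, at -0.40 ± 0.05. Replication, mitosis and recombination lists thus shared a lower median, each difference being mostly under the fold threshold.

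Among p53 targets, 12 of 28 were higher and 10 lower, and 4 were called lower and 1 higher. FDXR, a mitochondrial reductase, had 28.1, 25.5 and 25 CPM in SaABE and 48, 51.3 and 48 in SpABE (-0.91 ± 0.05, adjusted p = 2.51e-12, edgeR). DDB2, a damage sensor of nucleotide excision repair, was at 31.11 ± 1.29 against 55.01 ± 1.76 CPM (-0.82 ± 0.04), GADD45A at 82.21 ± 0.39 against 125.6 ± 4.77 (-0.61 ± 0.04) and MDM2, the ligase that degrades p53, at 243.7 ± 9.15 against 359.3 ± 16.3 (-0.56 ± 0.04). CDKN1A (p21), the target that halts the cycle, was instead at 259.1 ± 12.7 against 196.8 ± 2.88 (0.40 ± 0.04, adjusted p = 4.25e-09, edgeR), and TP53I3 was called higher (0.54 ± 0.10). The list was thus split.

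**Figure D4:**
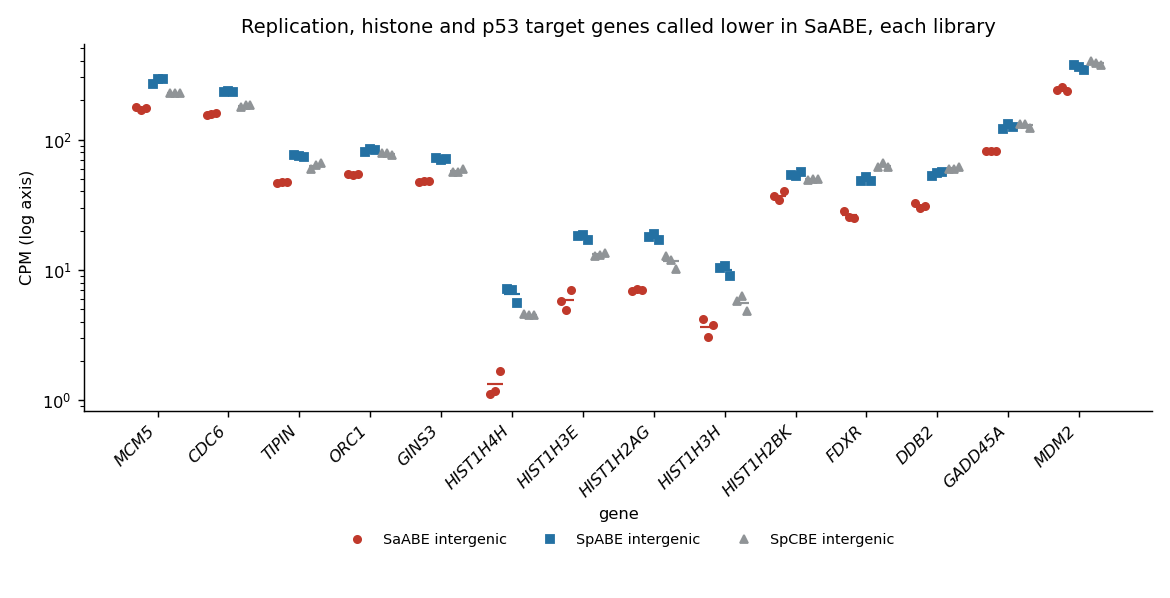
CPM (log axis) of 14 called-lower genes of the replication, histone and p53 target lists, 1 point per library and a line at each mean, for SaABE intergenic (red), SpABE intergenic (blue) and SpCBE intergenic (grey). All 3 SaABE libraries lie below all 3 SpABE libraries for each gene shown, and FDXR in SpCBE intergenic lies above SpABE.

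Small nucleolar RNA host genes carry snoRNAs in their introns, and many of their spliced messages are removed by nonsense-mediated decay during translation. Of 19 tested, 14 were lower and 0 higher, 4 were called lower, and the median was -0.218. SNHG15 had 66.2, 63.5 and 64.5 CPM in SaABE and 106, 114 and 107 in SpABE (-0.75 ± 0.03, adjusted p = 2.57e-14, edgeR). TAF1D was at -0.70 ± 0.04, SNHG12 at -0.69 ± 0.05 and GAS5 at -0.44 ± 0.03. Cytosolic ribosomal protein messages were 35 lower and 7 higher of 79, with a median of -0.0557 and a range of -0.293 (RPS6) to 0.293 (RPL38). The list named nuclear-retained RNAs had 6 tested genes, of which 3 were lower. TUG1 was lower by 0.27 and NORAD, which is not confined to the nucleus, by 0.23 on the log2 scale. Splicing regulators were 8 higher and 11 lower of 29, with TRA2B at 0.30 ± 0.03. Of long non-coding RNAs as a class 7.57% were called lower and 1.89% higher, against 2.69% and 3.44% of protein-coding genes, and PVT1, a long non-coding RNA beside MYC, had 9.84 to 12 CPM in SaABE and 27.1 to 29.1 in SpABE (-1.31 ± 0.07).

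Of the 13 messages that mitochondrial DNA encodes, 11 were higher and 0 lower, with a median of 0.195 and 0 called. MT-ND1 had 376, 357 and 348 CPM in SaABE and 303, 290 and 266 in SpABE (0.33 ± 0.05, adjusted p = 1.86e-05, edgeR), and MT-CO1 2413 to 2542 against 2038 to 2243 (0.22 ± 0.04). Without SpABE replicate 3, whose mitochondrial share was the lowest of the 6 libraries at 0.9772%, 7 were higher by adjusted p. Nuclear genes of the respiratory chain were 9 higher and 13 lower of 76 with a median of 4.7e-05. Messages from both genomes for the same complexes therefore did not differ alike.

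Among 17 targets of YAP and TEAD, which respond to cell contact and tension, 5 were higher and 5 lower. ANKRD1 had 8.56, 8.5 and 9.9 CPM in SaABE and 32.6, 30.4 and 28 in SpABE (-1.75 ± 0.09, adjusted p = 3.8e-13, edgeR), with 11.2 in SpCBE intergenic. CCN1, a secreted matrix protein and a target as well, was called in the other direction (0.52 ± 0.04). INHBA, the activin A subunit, was at 3.555 ± 0.458 against 9.351 ± 0.961 CPM (-1.40 ± 0.10), and at 2.624 in SpCBE intergenic. For ANKRD1 and INHBA the mean SpABE level stood above both other intergenic controls. The remaining large falls were WDR63, an axonemal dynein component (-1.35 ± 0.09), and TYW1B, a tRNA-modifying enzyme (-1.28 ± 0.08), for which SpCBE intergenic, at 12.02 and 8.807 CPM, lay near SpABE at 10.96 and 9.704.

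Interferon-stimulated and DNA-sensing genes were 1 higher and 5 lower of 36 tested. CGAS, the sensor of cytosolic DNA, was at 0.689 ± 0.205 against 1.39 ± 0.102 CPM (-1.01 ± 0.23, adjusted p = 0.0011, edgeR), and IFIT2 at 0.378 ± 0.0904 against 0.731 ± 0.271. The IFIT2 call was lost with the replicate block in the 6 libraries (adjusted p = 0.057, edgeR) and without 4 of the 6 libraries in turn. For NF-kB targets 3 of 19 were higher and 4 lower, with the chemokine CXCL8 at 0.765 ± 0.139 against 1.91 ± 0.16 CPM and the subunit RELB at 13.89 ± 0.186 against 7.581 ± 0.305. RNA adenosine deaminases and relatives were 4 higher and 2 lower of 16, with ADAR, the main editor of double-stranded RNA, not past the test at -0.05. Glycolysis (4 higher, 3 lower of 18), cholesterol synthesis (4 and 8 of 26) and nucleotide synthesis (4 and 8 of 27) held 0 called genes. NRF1 itself had 31.5 to 33.1 CPM in SaABE and 26.7 to 28.8 in SpABE (0.20 ± 0.06, adjusted p = 0.00604, edgeR), below the fold threshold, and PUDP, ANKRD26 and YEATS4 did not pass the test.

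The differences were spread over the genome. Chromosome medians ranged from -0.0333 (chromosome 6, where 66 of 946 tested genes were called lower and where the main histone cluster lies) to 0.0401 (chromosome 22). Along the GC share of the longest transcript, split into 5 equal bins of protein-coding genes, medians were -0.0719, -0.0283, 0.012, 0.0454 and 0.101, from 0.2917 to 0.4067 in the lowest bin to 0.5837 to 0.7685 in the highest. The share of genes called higher was 1.26% in the lowest bin and 7% in the highest, and of genes called lower 3.5% and 1.33%. The part of base composition in the calls was not tested. Called genes were mostly of low level, with 7.9% higher and 7.24% lower in the lowest of 5 bins by mean CPM and 1.05% and 0.245% in the highest.

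The same editors were also compared with NRF1 guides, in 6 other libraries that share none with the first comparison. There both editors had guides to the NRF1 splice site, which are not the same for both nickases. With NRF1 guides 1310 genes (7.38%) were called, 651 higher and 659 lower. Of these 575 were called in both comparisons, which is 46.1% of the intergenic calls and 43.9% of the NRF1-guide calls, 568 of them in the same direction (308 higher, 260 lower) and 7 in opposite directions. Of the 1248 intergenic calls 1126 (90.2%) had the same sign with NRF1 guides. The same share over all tested genes was not computed. Across genes, which are not independent replicates, Pearson's r was 0.459 over all genes and 0.691 over the called genes. The called genes were selected for large differences with intergenic guides, which can raise both the share of equal sign and r.

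Several leading genes were higher in SaABE with both kinds of guide. FBXL14 had a log2 fold change of 2.06 with NRF1 guides, KLHL25 1.90, HSP90AA1 1.44, JUND 1.42, DNAJB1 1.28 and HSPA6 1.40. The list counts below are by adjusted p alone. The share of all tested genes past adjusted p was not computed for NRF1 guides, so these counts have no background beside them. The HSP70 and HSP40 list was 12 higher and 3 lower with a median of 0.176 (0.141 with intergenic guides). The HSP90 list was 12 and 2, but its median was 0.142 against 0.397 with intergenic guides. Counts were 15 and 4 for the unfolded protein response, 0 and 19 for the histones and 2 and 13 for the small nucleolar RNA host genes. Other lists did not have the same counts. Immediate-early genes were 13 higher and 10 lower with a median of 0.0327, the integrated stress response 12 and 12 with a median of 0.0129, NFE2L2 targets 6 and 6, G1/S genes 12 and 18, and mitochondrial messages 1 and 1 with a median of -0.0268.

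Tested gene by gene, the editor difference itself differed between the guides for 277 genes (1.56%), 163 of them with the more positive value with intergenic guides. HSPB8, called higher with intergenic guides (1.08), was lower with NRF1 guides (-1.52, with 5.634 CPM in SaABE and 16.17 in SpABE), and NUPR1 changed from 1.60 to -0.66. ANKRD1 went from -1.75 to -3.25 and INHBA from -1.40 to -2.52. For HSPA6 and CRYAB the difference kept its sign and was smaller with NRF1 guides.

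**Figure D5:**
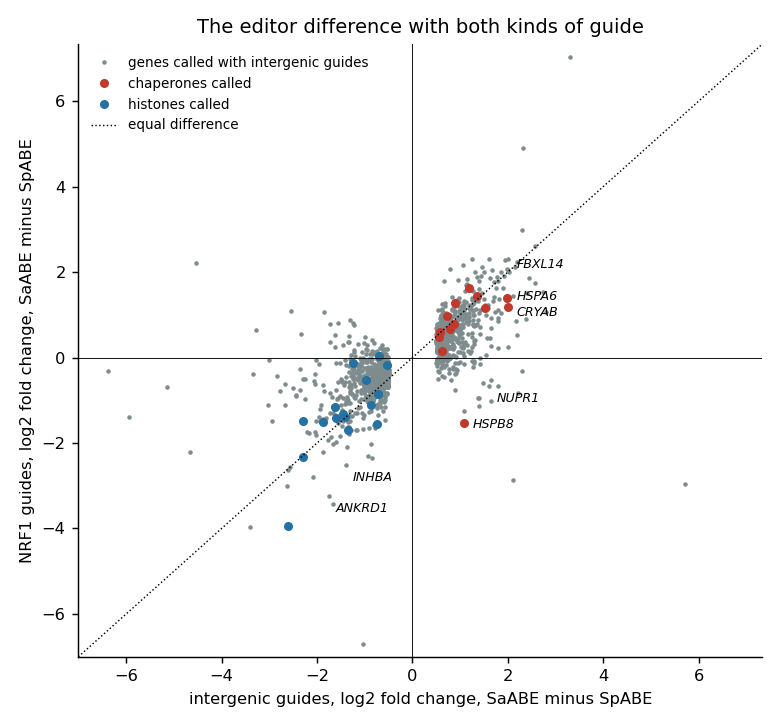
Log2 fold change of SaABE minus SpABE with intergenic guides (horizontal) and with NRF1 guides (vertical), 1 point per gene called with intergenic guides, with the called chaperones in red, the called histones in blue and a dotted line at equal values. Of the 1248 points 1126 lie in the quadrants of equal sign, and HSPB8 and NUPR1 lie in the lower right.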

How the data were processed

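Polyadenylated RNA was sequenced from HEK293T cells with the Illumina Stranded mRNA Prep kit. Cutadapt 1.18 (adapter removal), STAR 2.7.0f (mapping in its 2-pass mode), hg38, GENCODE 30 and DESeq2 1.46.0 are named in the methods or the submitters' notes. Which program counted, and how it treated strand and multiply mapped reads, is not stated there, so copies, pseudogenes, overlapping and antisense genes are uncertain. The deposited values are estimated counts per gene, not normalized, of which 19.63% of the nonzero values were not whole, and they were rounded before testing, since tests of whole counts had been planned. The table held 58870 genes and 36 sample columns, 18 of which belong to other samples and were not used. Totals of the libraries were 28101094 to 40687447 counts. Data for the intergenic comparison over 17367 genes were simulated at this depth, with the same spread for every gene (biological coefficient of variation 3.1%). Differences were given only to genes above a minimum mean CPM. Calls were made for 90% of genes with a 1.5-fold difference, for 100% with a 2-fold difference, and for 2 unchanged genes. Recovery for genes of lower level or wider spread, where many of the calls lie, was not tested.

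Genes were kept with filterByExpr by group, libraries were scaled by TMM, and quasi-likelihood tests with Benjamini-Hochberg adjustment were run in edgeR 4.0.16 (R 4.3.3) on 6 group means over all 18 libraries. The contrasts were SaABE minus SpABE with intergenic guides, the same with NRF1 guides, and their difference. CPM are TMM-scaled. Library measures were compared by an exact permutation test. The 33 gene lists and the members compared were chosen with earlier results of these data known. Genes were named by a rule: the 12 largest rises and the 12 largest falls among called genes of at least 5 CPM with a symbol that is no clone name, whose libraries did not overlap, up to 3 members per list by p, NRF1 and its 3 study targets, and the genes nearest to the guide sites. Other list members were named after their values were seen. Guide and promoter positions are those of hg38 and RefSeq GRCh38.p14, and 58517 of 58870 identifiers were found in GENCODE 44. Replicate numbers were not used as pairs in the main fit. Only 1 of 3 same-numbered pairs had a correlation of deviations over 0.1, which does not settle whether libraries were paired. P-values rest on the spread among the libraries sequenced, which may be technical only. Alternatives were other scalings, filters, library sets, a replicate block, a test against the fold threshold, DESeq2 1.42.0 and leaving out each library.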

Additional observations from a re-analysis of the deposited data

Results flagged for a closer look

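Genes were singled out here where the editor difference itself differed between intergenic and NRF1 guides, by the edgeR test of that difference with an adjusted p under 0.05 and an absolute size over 0.5. This held for 277 genes. The guides, and any effect of editing NRF1, differ along with the comparison, and their parts cannot be told apart.

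Among chaperone genes, the difference of differences was 2.6 for HSPB8 (1.08 with intergenic guides, -1.52 with NRF1 guides, adjusted p = 1.53e-13, edgeR). It was 0.811 for CRYAB (1.99 and 1.183, adjusted p = 4.13e-08, edgeR), 0.597 for HSPA6 (1.99 and 1.40, adjusted p = 9.8e-10, edgeR) and 0.893 for its pseudogene HSPA7. Among stress and immediate-early genes it was 2.26 for NUPR1 (1.60 and -0.66, adjusted p = 1.4e-08, edgeR), 1.04 for DUSP5, 0.635 for EGR3 and 0.525 for DUSP1, and it was 0.868 for the p53 target TP53I3. Among genes of contact and secretion it was 1.49 for ANKRD1 (-1.75 and -3.25, adjusted p = 1.81e-07, edgeR), 1.12 for INHBA (-1.40 and -2.52, adjusted p = 2.05e-05, edgeR) and 0.57 for CCN1. Histone genes went both ways, at -1.06 for HIST2H2AA4, -0.826 for HIST1H4H, -0.742 for HIST1H2BJ and 0.83 for HIST2H2BE. For TYW1B it was -0.566.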

How the results depend on the processing

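The 1248 intergenic calls, 636 higher and 612 lower, stayed within 1.5 times of these counts under every alternative but one. With a test against the fold threshold itself, 262 genes were called, 144 higher and 118 lower, 329 with NRF1 guides and 14 for the difference between guides, a stricter criterion by construction. The difference between guides was called for 420 genes with no filter on low counts and for 179 with DESeq2, and the cause was not tested. Leaving out each library in turn gave 1118 to 1288 calls, 568 to 648 higher and 533 to 645 lower, 1199 to 1273 with NRF1 guides and 205 to 328 for the difference between guides. The lowest of the last came without SpABE intergenic replicate 2.

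With the replicate block, 1246 genes were called in the fit of 18 libraries and 1121 in that of 6, so the block changed the count little. Same-numbered libraries had correlations of deviations of -0.289, 0.155 and 0.0491 over 8238 genes, and differently numbered ones from -0.454 to 0.385. Not every library correlated best with its own number. Another scaling left the share of higher calls at 50.8% or 50.9% (51% in the main analysis), and DESeq2, which changes the test too, gave 52.5%. Of 2372 single-gene values under alternatives 2240 kept their direction and side of the threshold, 126 were no longer past it and 5 newly past it, and 1 reversed: the log2 fold change of COL1A1, which did not pass the test, ranged from -0.09995 to 0.0002252 over the libraries left out in turn, the last without SaABE intergenic replicate 2. Of 462 list medians 450 moved by less than the spread between libraries, 11 by more, and 1 reversed by more than that spread, that of the proteasome subunits (0.00657), at -0.0123 with no filter on low counts. The proteasome median, near 0, was also negative without SaABE intergenic replicate 2 (-0.00153) and without SpABE intergenic replicate 1 (-0.00927). Of 924 list counts 59 moved by over 1.5 times, mostly counts of a few genes. Genes of low level, such as CGAS and IFIT2 of the interferon list, rest on few counts, and the part of depth was not tested.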
